A study of Mus musculus with 8 samples.

Results

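The gene set comprised 10 p53 pathway and senescence genes (Trp53, Mdm2, Cdkn1a, Ccng1, Gadd45a, Bax, Bbc3, Cdkn2a, Bmi1 and Igfbp3), chosen by symbol, and all 10 were found once among 35596 genes measured. They were followed in RNA sequencing of polyadenylated RNA from hand-picked pancreatic islets of male C57BL/6J mice, an inbred strain, with 4 weight-cycled and 4 obese libraries. Weight-cycled mice had 9 weeks of a 60% fat diet, then 9 weeks at 10% fat, and finally 9 more weeks at 60% fat. Obese mice had 9 weeks at 10% fat followed by 18 weeks at 60% fat, so both groups had equal time on each diet and no lean or chow-fed group enters the comparison. The order of diets and the length of the last high-fat period (9 weeks in weight-cycled and 18 weeks in obese mice) cannot be told apart. The sources used here state neither ages nor whether each library is a separate animal, so p-values cover only library-to-library spread, possibly technical.

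Trp53 encodes p53, a transcription factor that is held low by the ubiquitin ligase MDM2 and accumulates after DNA damage and other stresses. It then induces genes that halt the cell cycle (Cdkn1a), repair damage or adapt to stress (Gadd45a, Ccng1), trigger mitochondrial apoptosis (Bax, Bbc3) and restrain p53 itself (Mdm2). Senescence, a lasting exit from the cell cycle, is enforced by Cdkn1a and by the Cdkn2a locus, which the Polycomb protein BMI1 keeps silent. In mouse beta cells Cdkn2a products increase with age and limit proliferation.

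The start regions of the genes were read first, because a binding site is what makes a gene a direct p53 target. RefSeq windows on GRCm38.p6, from 250 bases before to 50 bases after an annotated start, were found for 10 of 10 genes, in 14 windows. The p53 consensus half-site, a palindrome that reads the same on both strands, was present in 6 of these windows, belonging to 6 genes, against 8.36% of all 32851 windows. Cdkn1a and Ccng1 are shown because their windows hold a half-site with a partner directly beside it. The Cdkn1a window (chr17:29090729-29091028, plus strand) lies at the upstream of its 2 annotated starts, 2790 bases before the other one. Capitals mark the half-sites.

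Cdkn1a: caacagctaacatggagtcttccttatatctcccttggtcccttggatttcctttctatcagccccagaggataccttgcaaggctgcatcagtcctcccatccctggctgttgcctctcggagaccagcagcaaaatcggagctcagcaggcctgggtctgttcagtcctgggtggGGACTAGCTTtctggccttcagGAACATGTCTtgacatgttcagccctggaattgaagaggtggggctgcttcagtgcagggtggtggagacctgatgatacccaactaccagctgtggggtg

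Ccng1: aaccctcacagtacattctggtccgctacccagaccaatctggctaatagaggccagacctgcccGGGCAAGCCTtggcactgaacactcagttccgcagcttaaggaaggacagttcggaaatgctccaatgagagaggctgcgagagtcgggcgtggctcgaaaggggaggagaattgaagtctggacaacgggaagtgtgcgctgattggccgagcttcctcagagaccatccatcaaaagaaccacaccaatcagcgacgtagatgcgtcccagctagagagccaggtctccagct

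In Cdkn1a the half-sites GGACTAGCTT and GAACATGTCT are separated by 12 bases, an arrangement of half-sites (spacer of 0 to 13 bases) found in 24 of all windows (0.0731%), and GAACATGTCT is followed at once by TGACATGTTC, which has 1 mismatch. In Ccng1 (chr11:40755237-40755536, minus strand) GGGCAAGCCT is preceded at once by AGACCTGCCC, also with 1 mismatch. A half-site with a perfect or 1-mismatch partner at such a spacing was in 1.09% of all windows. Single half-sites were GAACTTGCCT in Mdm2, AGGCAAGCTT in Bax, GGGCTAGCCC in Gadd45a and GGACTTGCCC in Trp53 itself. Bax has a 1-mismatch partner, AAGCATATCC, a base away. The letters were not in the windows of Bbc3, Cdkn2a, Bmi1 or Igfbp3, which says nothing of sites elsewhere, such as those in the first intron of Mdm2.

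The Bmi1 window is shown because Bmi1 is one of the genes that fell. It lies at chr2:18676768-18677067 on the plus strand, and capitals mark GGGCGG (on either strand, overlapping copies included), present in 35.7% of all windows, and CACGTG, present in 7.15%.

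Bmi1: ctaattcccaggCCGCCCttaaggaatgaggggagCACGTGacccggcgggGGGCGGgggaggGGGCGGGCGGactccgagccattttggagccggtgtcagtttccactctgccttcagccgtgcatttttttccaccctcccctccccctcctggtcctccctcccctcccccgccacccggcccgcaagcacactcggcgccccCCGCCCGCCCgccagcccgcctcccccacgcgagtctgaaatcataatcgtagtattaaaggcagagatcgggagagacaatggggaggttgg

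Properties of the libraries bear on every value. TPM, the share of a library's transcripts scaled for transcript length, keeps no record of depth, so depth is unknown and counting error cannot be stated. Of 8127 genes with a mean of at least 1 TPM, 85.5% had a fold change below 0, with a median of -0.26 on the log2(TPM + 1) scale, on which all fold changes here are given and which understates the change of low genes. Median-of-ratios scaling, which equalises the typical gene between libraries, moved that median to 0.03. Fold changes also followed transcript length. Their median was -0.14 in the shortest of 5 length bins (708.5 bases) and -0.36 in the longest (4122 bases). Relative to gene means over the 8 libraries, the rank correlation of values with length was 0.184 to 0.375 in obese libraries. It was 0.345 in weight-cycled replicate 1 and -0.400 to -0.283 in the other weight-cycled libraries. Length correction, the removal of this trend, moved the median of all tested genes to -0.01. Weight-cycled replicate 1 stood apart from its group: on the first principal component (66.8% of variance) it scored -7.98, within the obese range of -23.3 to -5.03, whereas the others of its group scored 13.8 to 30.6. Beta-cell markers summed to 784923 to 812606 TPM in weight-cycled and 789616 to 803454 TPM in obese libraries, nearly all of it from the insulin genes Ins1 and Ins2. Means of 6 of the 8 beta-cell markers were lower in weight-cycled islets, and those of Iapp and Ins1 were higher. Ins2 was lower only barely, at 678496 TPM in weight-cycled and 678759 TPM in obese islets. Slc2a2 (34.3 TPM in weight-cycled and 73.9 TPM in obese islets), Mafa (15.4 TPM in weight-cycled and 33.2 TPM in obese islets), Nkx6-1 and Ucn3 did not overlap between the groups. The same held for 22.4% of all tested genes. In bulk islets, fewer cells of a type and less RNA per cell cannot be told apart.

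Of the 10 genes, 8 passed the filter on low values, and 3 of them fell in weight-cycled islets, Trp53, Bmi1 and Igfbp3, while none rose (limma with Benjamini-Hochberg adjustment over all tested genes at 0.05). The background was 23.9% of all tested genes called lower and 1.21% called higher. The median fold change of the 8 was -0.29, close to the -0.26 of all tested genes. Without weight-cycled replicate 1, 6 were lower, Mdm2, Ccng1 and Gadd45a joining, against a background of 54.4%. After median-of-ratios scaling none of the 8 passed (background 0.295% lower and 0.972% higher). With that scaling, Trp53, Bmi1 and Igfbp3 below 0 and Cdkn1a above 0 had an unadjusted limma p under 0.05, as had 2384 of all 8127 tested genes. The 3 calls also rested on the number of libraries: none was made without weight-cycled replicate 2 or 4 or without obese replicate 1, 2 or 3, Bmi1 alone was called without weight-cycled replicate 3, and 3 genes were called without obese replicate 4. In the fits that called none, 0 to 39 of all tested genes were called either way, and 71 without weight-cycled replicate 3. Without obese replicate 4, 1672 of 8121 tested genes were lower and 56 higher. Groups that did not overlap were found for 3 of the 8, Bax, Bmi1 and Igfbp3, and for 22.4% of all tested genes.

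**Figure D1:**
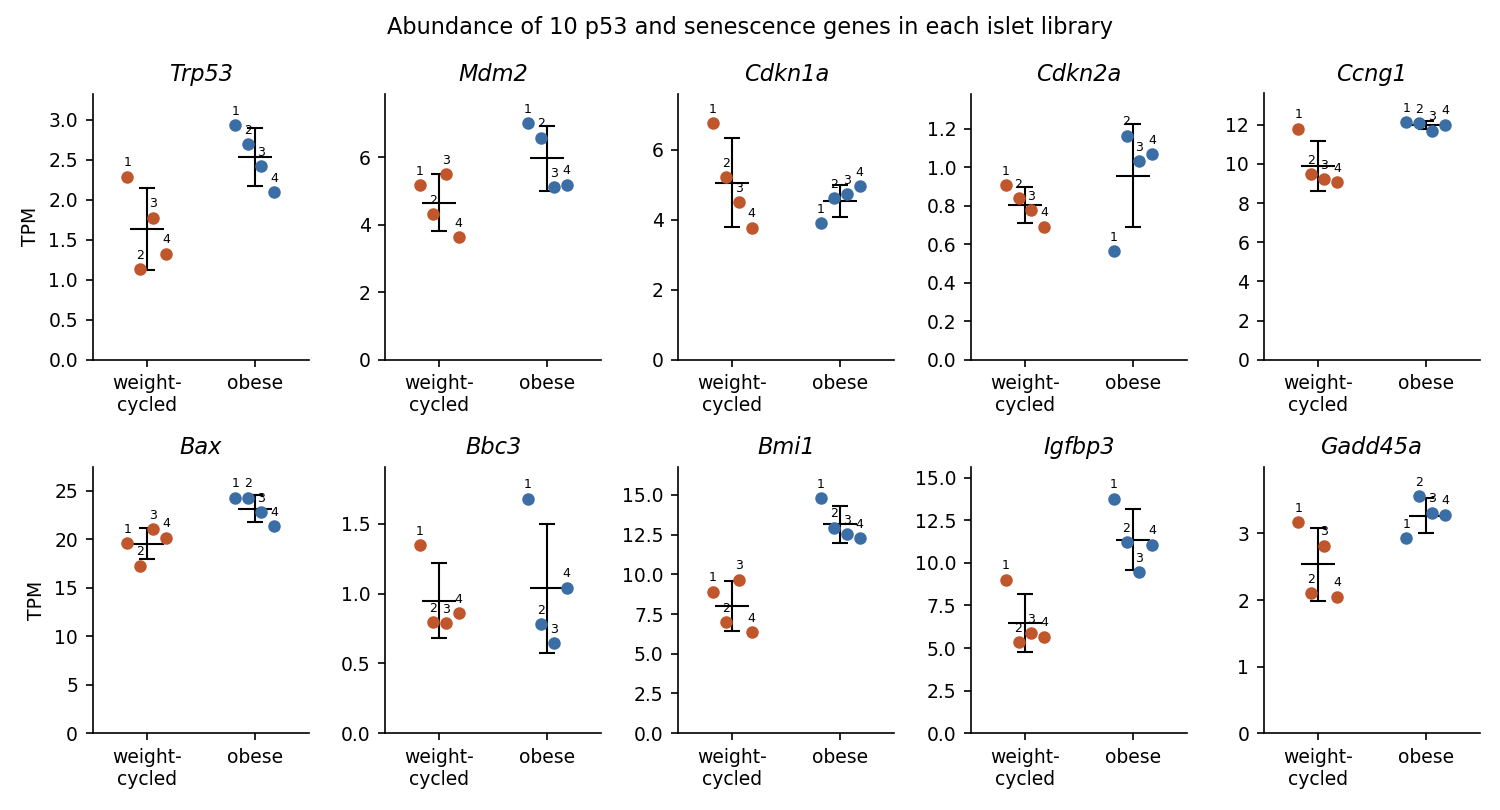
Abundance in TPM (vertical axes, from 0) of each of the 10 genes in weight-cycled and obese libraries. Points are libraries numbered by replicate, and bars are the mean and SD (n = 4 each). The groups do not overlap for Bax, Bmi1 and Igfbp3.

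Trp53 itself (chromosome 11, 69580359 to 69591873, plus strand, mm10) was a low-abundance transcript and was lower in weight-cycled islets. It was measured at 2.29, 1.13, 1.78 and 1.33 TPM in the weight-cycled libraries, against 2.94, 2.69, 2.42 and 2.09 TPM in the obese libraries. The groups overlapped only through weight-cycled replicate 1, which lay above obese replicate 4. The means were 1.63 ± 0.515 TPM in weight-cycled and 2.54 ± 0.363 TPM in obese islets (SD, n = 4 each). The log2 fold change was -0.44 (SE 0.145, limma adjusted p = 0.0465). Relative to the median of all tested genes this was -0.18. It was -0.20 (limma adjusted p = 0.167) after median-of-ratios scaling and did not pass.

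Mdm2 (chromosome 10, 117688875 to 117710758, minus strand, mm10), whose product marks p53 for degradation and which p53 induces in turn, did not pass. It was at 5.17, 4.30, 5.49 and 3.63 TPM in weight-cycled libraries, against 7.0, 6.57, 5.10 and 5.18 TPM in obese libraries. The highest values were those of obese replicates 1 and 2, and the other obese libraries lay among the weight-cycled ones. Its log2 fold change was -0.30 (SE 0.137, limma adjusted p = 0.0973), turning to 0.02 with median-of-ratios scaling and 0.01 with length correction. Mdm4, which encodes a relative of MDM2 that masks p53 without degrading it, was present at only 0.419 ± 0.239 TPM in weight-cycled and 0.511 ± 0.0825 TPM in obese islets (SD, n = 4 each). The log2 ratio of Mdm2 to Mdm4 within a library, from which library scaling cancels apart from the pseudocount of 0.1, was 3.28 ± 0.441 in weight-cycled and 3.31 ± 0.193 in obese islets (exact permutation test, two-sided, p = 0.971). Replicate 1 of the weight-cycled group stood at 2.63 and its 3 companions at 3.41 to 3.54.

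Other regulators of p53 were mostly below the filter, 7 of 18 being tested. Of the 7, 2 were lower and none higher, where 23.9% and 1.21% of all tested genes were. Usp7, a deubiquitinase that stabilises MDM2 and p53, was at 1.42 ± 0.584 TPM in weight-cycled and 2.51 ± 0.331 TPM in obese islets (SD, n = 4 each). The log2 fold change was -0.56 (limma adjusted p = 0.0367). Cop1, another ubiquitin ligase for p53, changed by -0.46 (limma adjusted p = 0.0345). Trp53bp1, a DNA break response gene, and Sirt1, a deacetylase acting on p53, had fold changes of -0.47 and -0.31 and did not pass (limma adjusted p = 0.0643 and 0.0684). The median of the 7 was -0.32, beside -0.26 for all tested genes. None of the 7 passed after median-of-ratios scaling, with Cop1 at -0.12 and Usp7 at -0.33 (limma adjusted p = 0.610 and 0.119). None passed after length correction either, with Cop1 at -0.33 and Usp7 at -0.20 (limma adjusted p = 0.137 and 0.185).

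Cdkn1a (chromosome 17, 29090976 to 29100727, plus strand, mm10), the cell cycle inhibitor p21 and the best known p53 target, did not pass. It was measured at 6.76, 5.21, 4.50 and 3.76 TPM in the weight-cycled libraries, against 3.89, 4.60, 4.72 and 4.96 TPM in the obese libraries. The weight-cycled values spanned those of the obese group on both sides. The log2 fold change was 0.11 (SE 0.145, limma adjusted p = 0.547), which is 0.37 above the median of all tested genes, and -0.02 without weight-cycled replicate 1. After median-of-ratios scaling it was 0.42 (SE 0.131, limma adjusted p = 0.0976; unadjusted p = 0.00914). With that scaling and without weight-cycled replicate 1 it was 0.38 (limma adjusted p = 0.0577). With length correction and without that library it was 0.23 (limma adjusted p = 0.217). Weight-cycled replicate 1, the highest library for Cdkn1a, also had the highest sum of 7 acinar markers, 5437 TPM, the 3 other weight-cycled libraries having 2243 to 2578 TPM and the obese libraries 1837 to 3489 TPM. The tested gene whose pattern was most like that of Cdkn1a over the 8 libraries was Prss3, a trypsinogen gene of acinar cells (Pearson r = 0.889, at least 0.864 with any library left out), followed by Racgap1 and Plxnb1 (r = 0.875 and 0.828, down to 0.615 and 0.528). These values describe likeness over libraries that share their scaling and makeup. The part of acinar RNA in these values was not tested, and reads of trypsin genes may be split among near-identical copies, so the Prss3 value is uncertain. The gene AC167363.2 overlaps Cdkn1a on the opposite strand, and without a stated strand setting their reads cannot be told apart.

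Within each library Cdkn1a was also set against Trp53 in the same way. The log2 ratio of Cdkn1a to Trp53 was 1.52, 2.11, 1.29 and 1.44 in weight-cycled libraries, against 0.39, 0.75, 0.93 and 1.20 in obese libraries. All 4 weight-cycled libraries lay above all 4 obese ones. The means were 1.59 ± 0.358 in weight-cycled and 0.82 ± 0.340 in obese islets (SD, n = 4 each), a difference of 0.77 (exact permutation test, two-sided, p = 0.0286, the smallest p this design allows). Adjusted over the 3 ratios examined, p was 0.0857 and the difference did not pass the correction. Without weight-cycled replicate 1 it was 0.79 (exact permutation p = 0.0571).

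**Figure D2:**
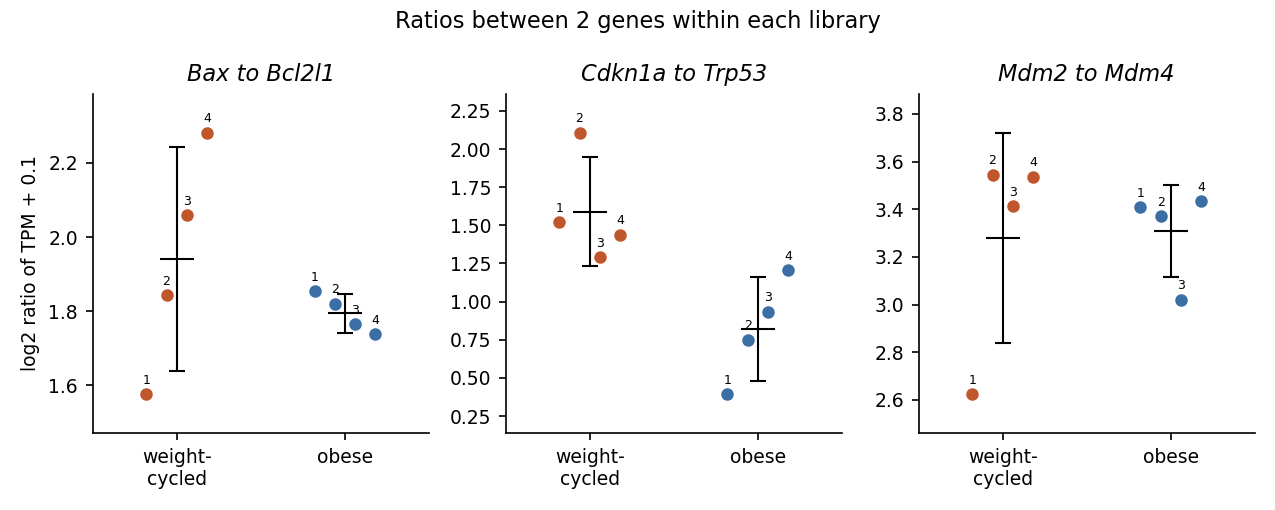
Log2 ratio of TPM + 0.1 between a pair of genes within each library (vertical axes, which do not start at 0), for weight-cycled and obese libraries numbered by replicate, with mean and SD (n = 4 each). The Cdkn1a to Trp53 ratios of 1.29 to 2.11 in weight-cycled libraries lie above those of 0.39 to 1.20 in obese libraries, while the other ratios overlap.

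Ccng1 (chromosome 11, 40748552 to 40755311, minus strand, mm10), the cyclin G1 gene and a p53 target whose window is printed above, was at 11.8, 9.46, 9.22 and 9.08 TPM in weight-cycled libraries, against 12.1, 12.1, 11.7 and 12.0 TPM in obese libraries. Obese libraries varied little, and weight-cycled replicate 1 lay within their range while its 3 companions lay below. The log2 fold change was -0.26 (SE 0.0991, limma adjusted p = 0.0640), equal to the median of all tested genes within 0.01, and it was -0.34 (limma adjusted p = 0.00665) without weight-cycled replicate 1. After median-of-ratios scaling it turned to 0.09. The genes most like it over the 8 libraries were Tns2, Abca1 and Yars (Pearson r = 0.990, 0.989 and 0.988).

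Gadd45a (chromosome 6, 67035096 to 67037457, minus strand, mm10), a stress sensor gene with roles in DNA repair and kinase signalling, was at 3.17, 2.10, 2.82 and 2.05 TPM in weight-cycled libraries, against 2.92, 3.56, 3.31 and 3.28 TPM in obese libraries. Weight-cycled replicate 1 alone lay above an obese library. The fold change of -0.28 (SE 0.125) did not pass (limma adjusted p = 0.0933), and it was -0.01 after median-of-ratios scaling. E230016M11Rik overlaps Gadd45a on the opposite strand. Among 8 tested of 9 GADD45 relatives and stress kinases the median was -0.37. Where 23.9% of all tested genes were lower, 2 of these 8 were lower and none higher. They were Gadd45b at -0.58 (limma adjusted p = 0.0449) and Map2k4, a kinase that activates JNK, at -0.39 (limma adjusted p = 0.0441). Map2k7, also a JNK activator, and Mapk9, encoding a JNK, were both at -0.39 and did not pass. None of the 8 passed after median-of-ratios scaling, with a median of -0.06, or after length correction, with a median of -0.10.

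Further p53 targets moved in both directions. Of 30 listed, 14 were tested, with a median of -0.23. Of the 14, 5 were lower and 1 higher, where 23.9% and 1.21% of all tested genes were. Rrm2b, the p53-induced ribonucleotide reductase subunit, was at 2.54 ± 0.415 TPM in weight-cycled and 4.12 ± 0.559 TPM in obese islets (SD, n = 4 each). It fell by 0.53 on the log2 scale (SE 0.123, limma adjusted p = 0.0322). Tigar, a regulator of glycolysis, fell by 0.48 and Plk3, a stress-responsive kinase gene, by 0.58 on the log2 scale (limma adjusted p = 0.0353 and 0.0367). The higher gene was Rps27l, a ribosomal protein relative induced by p53, at 137, 179, 175 and 250 TPM in weight-cycled libraries, against 119, 130, 141 and 118 TPM in obese libraries. Only weight-cycled replicate 1 fell within the obese range, and the fold change was 0.51 (SE 0.153, limma adjusted p = 0.0407). Btg2 and Ei24, named after their values were seen, were the other lower targets, at -0.41 and -0.27. After median-of-ratios scaling none of the 14 passed, and Ei24 turned to 0.09. After length correction 1 of the 14 passed, Rrm2b at -0.41 (limma adjusted p = 0.0467), where 1.64% of all tested genes were lower.

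Bax (chromosome 7, 45461697 to 45466898, minus strand, mm10), whose product perforates mitochondria in apoptosis, was the most abundant of the 10 genes. It was at 19.6, 17.3, 21.1 and 20.2 TPM in weight-cycled libraries, against 24.3, 24.3, 22.8 and 21.3 TPM in obese libraries. The groups did not overlap, but the gap between weight-cycled replicate 3 and obese replicate 4 was narrow. The log2 fold change of -0.24 (SE 0.0921) did not pass (limma adjusted p = 0.0669) and was 0.02 above the median of all tested genes. It turned to 0.13 after median-of-ratios scaling, and to 0.23 (limma adjusted p = 0.0348; background 25.4% higher) with that scaling and without weight-cycled replicate 1. Gm45808 overlaps Bax on the same strand and averaged 0.162 TPM in weight-cycled and 0.421 TPM in obese islets.

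Bbc3 (chromosome 7, 16308393 to 16318205, plus strand, mm10), which encodes the apoptosis inducer PUMA, averaged under 1 TPM and was not tested. It was at 1.35, 0.796, 0.788 and 0.861 TPM in weight-cycled libraries, against 1.68, 0.783, 0.643 and 1.04 TPM in obese libraries. Replicate 1 was the highest of each group, and the groups overlapped throughout. In the fit without a filter its log2 fold change was -0.05 (SE 0.170, limma adjusted p = 0.868).

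None of 9 tested members of a list of 14 BCL2 family genes passed (limma, 2 at an unadjusted p under 0.05, against 3993 of all 8127 tested genes), with a median of -0.21. Bcl2l1, encoding the survival protein BCL-XL, had the smallest p, at 5.07 ± 1.03 TPM in weight-cycled and 6.60 ± 0.201 TPM in obese islets (SD, n = 4 each; log2 fold change -0.34, limma adjusted p = 0.0546). Mcl1, a further survival gene, and Bnip3l and Bik, which encode BH3-type death proteins, had fold changes of -0.26, -0.21 and -0.21. After median-of-ratios scaling the median of the 9 was 0.14, none passed and Bcl2l1 was at -0.02. With that scaling 2 of the 9 were below 0, against 45.3% of all tested genes. After length correction the median was 0.03 and none passed. The log2 ratio of Bax to Bcl2l1 was 1.94 ± 0.301 in weight-cycled and 1.79 ± 0.0526 in obese islets (SD, n = 4 each), with p = 0.371 in a two-sided exact permutation test. The weight-cycled ratios, from 1.58 to 2.28, spread on both sides of the obese ones.

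**Figure D3:**
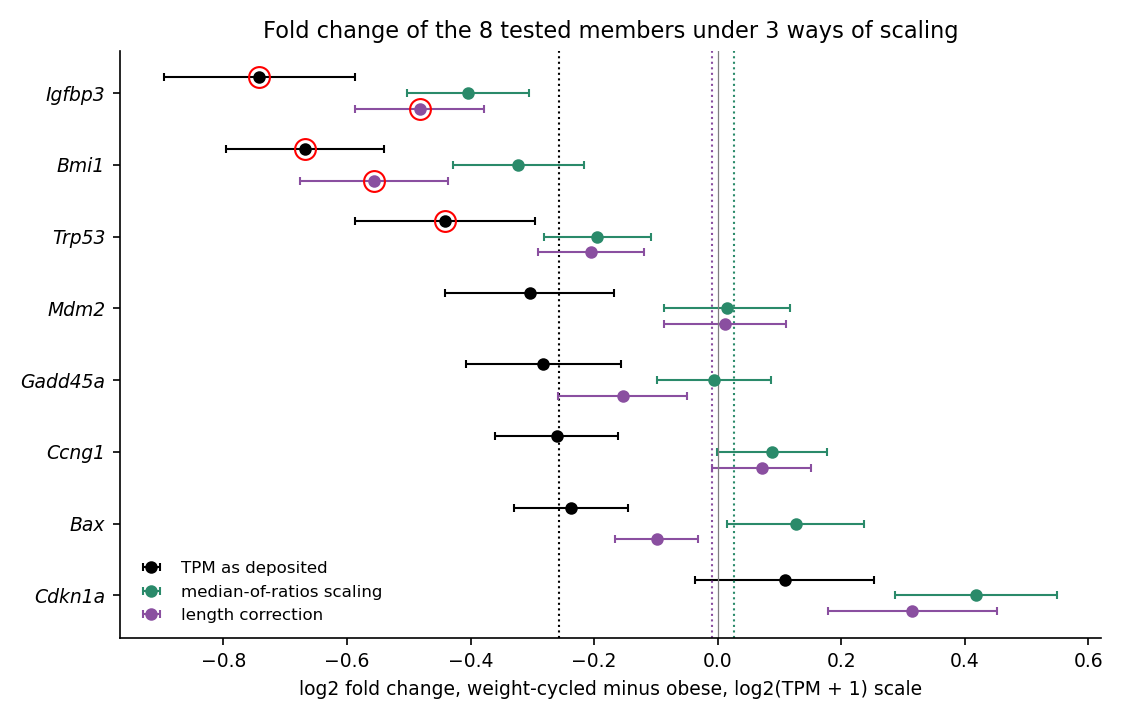
Log2 fold change, weight-cycled minus obese, on the log2(TPM + 1) scale (horizontal axis) of the 8 tested genes from TPM as deposited, after median-of-ratios scaling and after correction for transcript length. Bars are standard errors, dotted lines the medians of all tested genes in each fit, and red rings mark limma adjusted p under 0.05. Igfbp3 and Bmi1 lie farthest left in each fit and Cdkn1a farthest right.

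Cdkn2a (chromosome 4, 89274471 to 89294653, minus strand, mm10) encodes inhibitors that enforce senescence. It averaged under 1 TPM, so it was not tested. RefSeq gives it starts that lie 12427 bases apart, from which the cell cycle inhibitor p16Ink4a and the MDM2 inhibitor p19Arf are made, and a gene-level value adds them together. It was at 0.906, 0.838, 0.775 and 0.690 TPM in weight-cycled libraries, against 0.563, 1.16, 1.03 and 1.07 TPM in obese libraries. Obese replicate 1 was the lowest library of all, and the other obese libraries lay above every weight-cycled one. In the fit without a filter its fold change was -0.11 (SE 0.116, limma adjusted p = 0.550).

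Bmi1 (chromosome 2, 18677018 to 18686629, plus strand, mm10), the Polycomb gene that silences Cdkn2a, fell in weight-cycled islets. It was measured at 8.92, 6.98, 9.67 and 6.35 TPM in the weight-cycled libraries, against 14.8, 12.9, 12.5 and 12.3 TPM in the obese libraries. The highest weight-cycled library lay well below the lowest obese one. The means were 7.98 ± 1.57 TPM in weight-cycled and 13.1 ± 1.15 TPM in obese islets (SD, n = 4 each). Its log2 fold change was -0.67 (SE 0.128, limma adjusted p = 0.0266), or -0.41 relative to the median of all tested genes. Without weight-cycled replicate 1 it was -0.72 (limma adjusted p = 0.00113). After median-of-ratios scaling it was -0.32 (limma adjusted p = 0.104). Length correction, which removes each library's loess trend over transcript length, gave -0.56 (limma adjusted p = 0.0403; background 1.64% lower) with the median length of its coding transcripts, 617 bases, but -0.37 (limma adjusted p = 0.0576) with the longest, 3594 bases.

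Other Polycomb genes had fold changes below 0 in 11 of 11 tested cases, with a median of -0.36, where 85.5% of all tested genes were below 0. Where 23.9% of all tested genes were lower by the test, 4 of the 11 were lower and none higher. These were Cbx7, a reader of the Polycomb histone mark, at 4.16 ± 1.29 TPM in weight-cycled and 7.27 ± 1.69 TPM in obese islets (SD, n = 4 each; log2 fold change -0.69, limma adjusted p = 0.0356), Rnf2, the catalytic partner of BMI1, at -0.44 (limma adjusted p = 0.0367), Pcgf2, a close relative of Bmi1, at -0.43 (limma adjusted p = 0.0454), and Ezh1, a histone methyltransferase gene, at -0.38 (limma adjusted p = 0.0485). After median-of-ratios scaling 10 of the 11 were below 0, against 45.3% of all tested genes, and none passed. After length correction 8 of the 11 were below 0, against 51.7% of all tested genes. Their median was then -0.08, none passed and Ezh1 was at -0.02. Ezh2, the methyltransferase that acts on Cdkn2a in young mouse beta cells, was below the filter, at 0.190 to 0.522 TPM in weight-cycled and 0.216 to 0.372 TPM in obese libraries, and was named after its values were seen.

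Other inhibitors of cyclin-dependent kinases and the RB family had 5 tested members of 8, with a median of -0.29. Of the 5, 1 was lower and none higher, where 23.9% of all tested genes were lower. Cdkn2b, the p15 gene beside Cdkn2a, was at 2.08 ± 0.364 TPM in weight-cycled and 2.76 ± 0.245 TPM in obese islets (SD, n = 4 each; log2 fold change -0.29, limma adjusted p = 0.0688). Cdkn1b, the p27 gene, and Cdkn2c, the p18 gene, were at -0.30 and -0.21 and did not pass. Rbl2, an RB relative that holds cells in quiescence, was the gene that fell, by 0.40 on the log2 scale (limma adjusted p = 0.0459). It did not pass at -0.21 after median-of-ratios scaling (limma adjusted p = 0.139) or at -0.03 after length correction (limma adjusted p = 0.824).

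Igfbp3 (chromosome 11, 7206086 to 7213923, minus strand, mm10) encodes a secreted binding protein for insulin-like growth factors that p53 can induce. It had the largest fold change of the 10 from TPM as deposited. Bmi1 had the largest without weight-cycled replicate 3 and after length correction by median transcript length, though not by the longest transcript. After median-of-ratios scaling Cdkn1a had the largest, 0.42, beside -0.40 for Igfbp3. Igfbp3 was measured at 9.00, 5.33, 5.89 and 5.67 TPM in the weight-cycled libraries, against 13.8, 11.2, 9.44 and 11.1 TPM in the obese libraries. The groups did not overlap, though weight-cycled replicate 1 lay close to obese replicate 3. The means were 6.47 ± 1.70 TPM in weight-cycled and 11.4 ± 1.78 TPM in obese islets (SD, n = 4 each). Its log2 fold change was -0.74 (SE 0.154, limma adjusted p = 0.0303), or -0.48 relative to the median of all tested genes. Without weight-cycled replicate 1 it was -0.89 (limma adjusted p = 0.000705). Length correction gave -0.48 (limma adjusted p = 0.0422; background 1.64% lower), and median-of-ratios scaling -0.40 (limma adjusted p = 0.0661).

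Markers of islet blood vessels were also lower on average. All 7 endothelial markers (Pecam1, Cdh5, Kdr, Plvap, Flt1, Emcn and Esam) had lower means in weight-cycled than in obese islets, where 85.5% of all tested genes had a fold change below 0, and none was at 0. Their sum ranged from 23.3 to 49.4 TPM in weight-cycled and from 39.5 to 67.7 TPM in obese libraries. Igfbp3 divided by that sum was 0.163 to 0.243 in weight-cycled and 0.203 to 0.280 in obese libraries, and on this measure, chosen after the data were seen, the groups overlapped. The 8 stromal markers summed to 7.66 to 17.2 TPM in weight-cycled and 12.3 to 17.4 TPM in obese libraries, and the 7 macrophage markers to 36.9 to 46.3 TPM in weight-cycled and 46.3 to 54.7 TPM in obese libraries. The part of these cells in the Igfbp3 result was not tested.

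**Figure D4:**
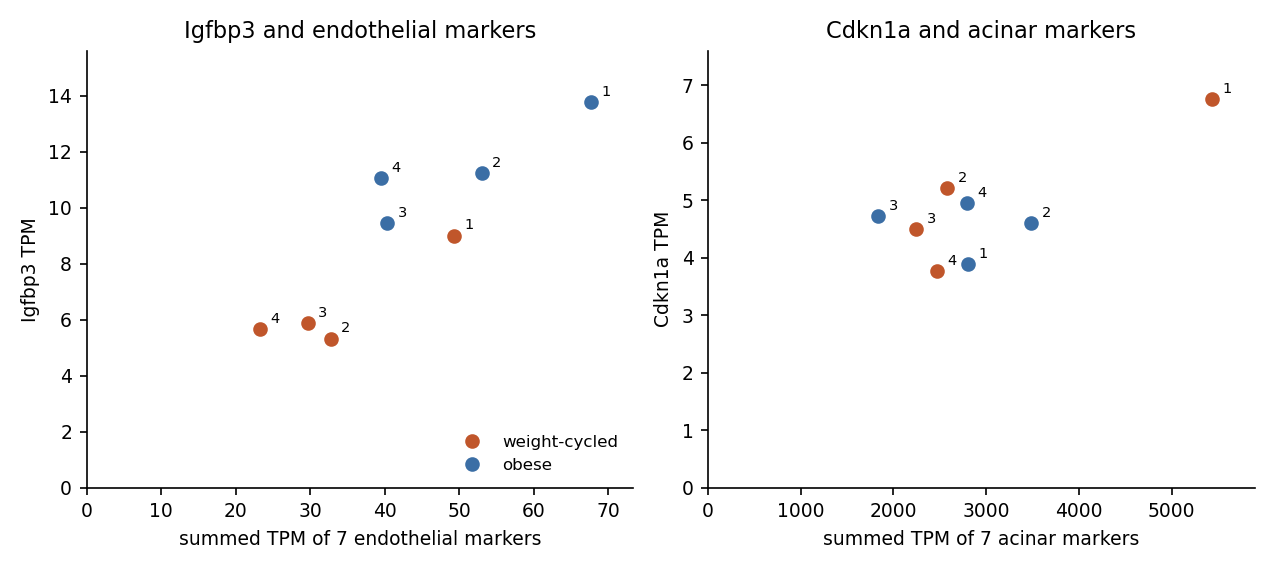
Left, Igfbp3 in TPM against the summed TPM of 7 endothelial markers. Right, Cdkn1a in TPM against the summed TPM of 7 acinar markers. Each point is a library numbered by replicate, weight-cycled or obese by colour. Weight-cycled replicate 1 lies beside the obese libraries at left (9.00 TPM Igfbp3, 49.4 TPM markers) and alone at right (6.76 TPM Cdkn1a, 5437 TPM markers).

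Of the other insulin-like growth factor genes 2 of 10 were tested, and neither Igfbp7 at -0.37 (limma adjusted p = 0.0527) nor Igf2r at -0.46 (limma adjusted p = 0.0792) passed. Of 24 senescence and secretory genes, 4 were above the filter, with a median of -0.34. Of the 4, 2 were lower and none higher, where 23.9% of all tested genes were lower. Il6, an inflammatory cytokine gene, was at 0 to 0.0658 TPM in weight-cycled and 0 to 0.0223 TPM in obese libraries, and was named after its values were seen. Hmgb1, a chromatin protein that senescent cells release, fell. It was at 32.9, 27.8, 31.9 and 27.8 TPM in weight-cycled libraries, against 48.3, 43.4, 45.3 and 40.2 TPM in obese libraries. The groups did not overlap, and the log2 fold change was -0.54 (SE 0.0947, limma adjusted p = 0.0243), staying past the threshold after length correction (-0.40, limma adjusted p = 0.0288) but not after median-of-ratios scaling (-0.17, limma adjusted p = 0.267). Vegfa, a growth factor for blood vessels, fell by 0.70 (limma adjusted p = 0.0421), but did not pass at -0.36 after median-of-ratios scaling (limma adjusted p = 0.138) or at -0.53 after length correction (limma adjusted p = 0.112). Glb1, whose product is the senescence-associated galactosidase, and Timp2 were at -0.13 and -0.11 and did not pass.

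**Figure D5:**
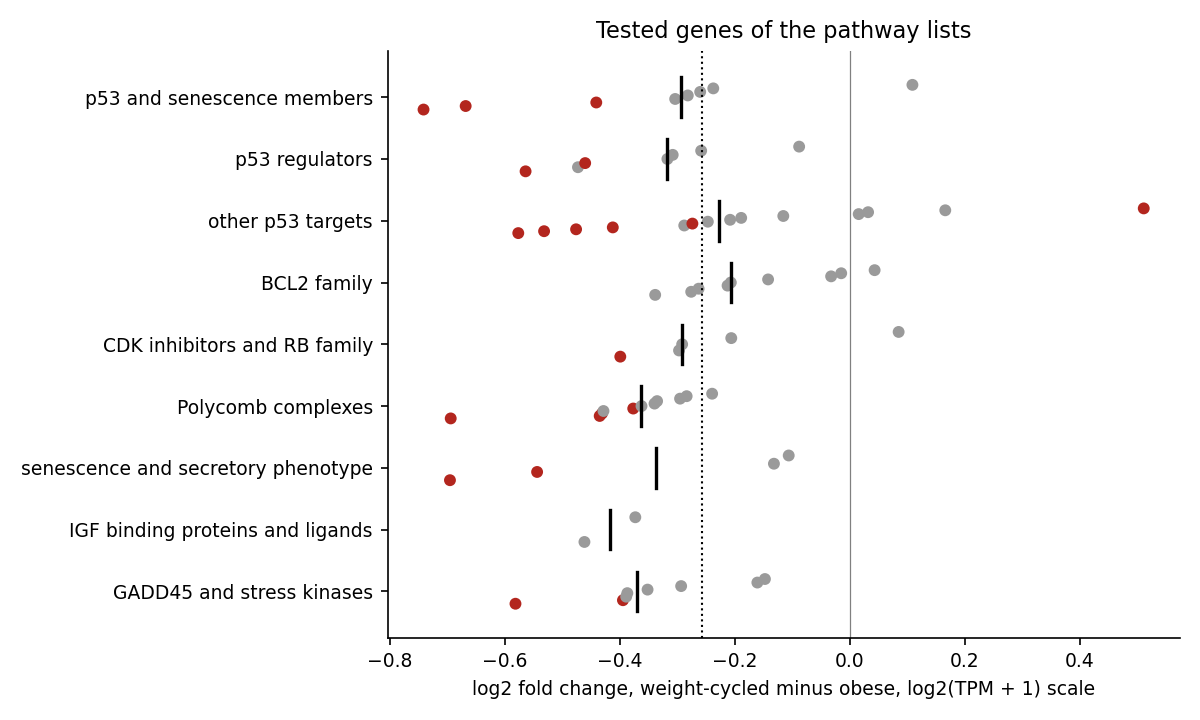
Log2 fold change, weight-cycled minus obese, of the tested genes of each list (horizontal axis), with red points for limma adjusted p under 0.05, grey points for the rest and a black bar at the list median. The dotted line is the median of all tested genes, -0.26. Rps27l, at 0.51, is the red point to the right of 0.

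In abundance per length, Bax led in every library and Cdkn2a and Bbc3 were lowest on average in both groups. The order of means in weight-cycled islets was Bax (19.5 TPM), Ccng1 (9.89), Bmi1 (7.98), Igfbp3 (6.47), Cdkn1a (5.06), Mdm2 (4.65), Gadd45a (2.54), Trp53 (1.63), Bbc3 (0.948) and Cdkn2a (0.802). In obese islets it was Bax (23.2 TPM), Bmi1 (13.1), Ccng1 (12.0), Igfbp3 (11.4), Mdm2 (5.96), Cdkn1a (4.54), Gadd45a (3.27), Trp53 (2.54), Bbc3 (1.04) and Cdkn2a (0.956). Among neighbours in the weight-cycled order, the means of Bmi1 and Igfbp3, of Igfbp3 and Cdkn1a, of Cdkn1a and Mdm2 and of Bbc3 and Cdkn2a differed by less than the larger SD of the pair. In the obese order this held for Ccng1 and Igfbp3 and for Bbc3 and Cdkn2a.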

How the data were processed

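Expression values are TPM, which the authors made with Salmon 1.5.2 and mm10, per the submitters' processing notes, and deposited as a single table of 8 libraries. The annotation behind the gene-level values is not given in the sources used here. TPM columns sum to 999930 to 999949, so depth is unknown and its precision cannot be given. Groups follow the labels. Genes with a mean of at least 1 TPM were tested on log2(TPM + 1) with limma 3.58.1 in R 4.3.3 (variance trend, no covariate, Benjamini-Hochberg adjustment at 0.05), after the fit was tested on simulated data. Ratios within a library used log2(TPM + 0.1) and exact permutation over 70 assignments. Alternatives were other pseudocounts, filters, median-of-ratios scaling, removal of the loess trend (span 0.5) of each library with transcript length, a replicate block, no variance trend and leaving out each library. The 10 genes and the lists were chosen with earlier results of these data known, and list genes were named by a rule of smallest p within each list, with exceptions stated where they occur. Promoter windows and sequences come from RefSeq (GRCm38.p6).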

Additional observations from a re-analysis of the deposited data

Results flagged for a closer look

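In a group of 4 libraries, a library was singled out where its gap to the nearest other, over the range, was above the 95% critical value of Dixon's test. This held for 8 of 86 groups examined, where chance gives about 4.3. Weight-cycled replicate 1 was the library in 6 of them. It held 9.00 TPM of Igfbp3 where its 3 companions held 5.33 to 5.89 TPM, 11.8 TPM of Ccng1 against 9.08 to 9.46, and 1.35 TPM of Bbc3 against 0.788 to 0.861. It also held 1.23 TPM of Ezh1 against 0.578 to 0.648 and 3.13 TPM of Igf2r against 1.20 to 1.36. Its log2 ratio of Mdm2 to Mdm4 was 2.63, below the 3.41 to 3.54 of the others. Among the obese libraries, replicate 3 had a ratio of 3.02 against 3.37 to 3.43. Weight-cycled replicate 4 held 1.39 TPM of Bik against 0.770 to 0.873. Deviations from each gene's mean over the 8 libraries also set weight-cycled replicate 1 apart from its group. Their rank correlation with transcript length was 0.345, against -0.400 to -0.283 in the others (obese libraries 0.184 to 0.375). These signs are relative between libraries and do not give the trend of abundance itself with length. The part of this in the values was not tested.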

How the results depend on the processing

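Of the 10 genes, the number lower was 3 with pseudocounts of 0.1 and 5, without a variance trend and with the replicate block (1841, 2020, 1969 and 2754 of all tested genes being lower). It was 2 with a filter of 5 TPM (1001 of 3480 genes lower), which left 5 of the 10 tested and removed Trp53. It was also 2 with length correction (133 of 8127). It was 0 without a filter (no gene at all was called by limma, 5686 having an unadjusted p under 0.05) and 0 after median-of-ratios scaling. It was 1 with length correction by the longest transcript (167 of 8127 genes lower), and 0 to 6 with a library left out. The number higher was 0 throughout except 1 with median-of-ratios scaling and without weight-cycled replicate 1, an alternative chosen after seeing the data. In that fit 2 were lower, Trp53 and Igfbp3 (limma adjusted p = 0.0486 and 0.00540), with 926 of 8064 tested genes lower and 2047 higher. With length correction and without that library 3 were lower, Trp53, Bmi1 and Igfbp3, as were 1084 of the 8064. Sign changes are given here for the tested genes of the 10 and the list genes named by smallest p. Other listed genes, Ei24 among them, also changed sign. Fold changes changed sign with median-of-ratios scaling for Mdm2 (0.016), Ccng1 (0.087), Bax (0.13), Bnip3l (0.14), Mcl1 (0.066), Cdkn1b (0.047), Cdkn2c (0.11), Glb1 (0.19), Timp2 (0.22) and Igfbp7 (0.00077). With length correction they did for Mdm2 (0.012), Ccng1 (0.071), Sirt1 (0.035), Bnip3l (0.11), Mcl1 (0.0012), Cdkn2c (0.029), Glb1 (0.15) and Timp2 (0.16). By the longest transcript, examined for the 10 genes only, the fold change of Ccng1 did (0.037). Without weight-cycled replicate 1, Cdkn1a was -0.018, but it kept its sign with median-of-ratios scaling as well, at 0.38. With that scaling and without that library, Mdm2 was 0.059, Ccng1 0.11 and Bax 0.23. With length correction and without that library, Mdm2 was 0.054 and Ccng1 0.086. The log2 ratio of Cdkn1a to Trp53 differed by 0.60 to 0.90 with a library left out (exact permutation p 0.0286 to 0.0571), and that of Mdm2 to Mdm4 by -0.12 to 0.19. Libraries with the same number did not deviate together (correlations of -0.28 to 0.23). Pairing by number was thus not seen, but so few values cannot exclude it. The replicate block called 2903 of all tested genes, against 2044 without it. The block gave 0.77 for Cdkn1a to Trp53 with an exact p of 0.125, the smallest that 4 pairs allow. The cause was not tested. Other genes named by smallest p and called from TPM as deposited kept their call in at most 3 of the 8 fits with a library left out. Btg2 and Ei24 were not examined in this way. TPM holds no depth, so no limit of detection can be given for Cdkn2a or Bbc3.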
